A study of Mus musculus with 44 samples.

Results

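Tdrd1, Tdrd6, Tdrd7, Tdrkh and Stk31 are 5 mouse genes for Tudor domain proteins of the germline. Their transcript levels were followed over 44 microarrays, all of germ cells except 1 of embryonic stem cells. Every probe of the non-normalized intensity table whose annotation carries 1 of the 5 symbols was taken, which gave 8 of 25697 probes and at least 1 probe for each gene. The choice of probes used symbols and no measured value, while the 5 genes were chosen with earlier results of these data known. In the filter on low signal (detection p under 0.01 on at least 2 arrays) 5 of the 8 probes were kept, 1 per gene, and these stand among 10935 genes tested.

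Tudor domains bind methylated arginines, above all the symmetrically dimethylated arginines near the ends of PIWI proteins. PIWI proteins carry piRNAs, small RNAs that guide the silencing of transposons in germ cells, and the germline Tudor proteins hold PIWI proteins and their partners together in nuage, the cytoplasmic granules of germ cells. Mouse TDRD1, TDRD6 and TDRD7 belong to such granules (TDRD6 and TDRD7 to the chromatoid body of the later male germ cell), TDRKH sits on mitochondria and takes part in the trimming of piRNA precursors, and STK31 joins a Tudor domain to a kinase domain.

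The cells were primordial germ cells (PGC) of the mouse, sorted by flow cytometry, and the RNA was amplified, labelled with biotin and hybridized to Illumina MouseRef-8 v2 arrays. Germ cells of embryonic day (E) 11.5 were not divided by sex. Female and male germ cells were taken daily from E12.5 to E18.5, and male germ cells, which the labels still call primordial germ cells, every 2 days from 8 to 20 days after birth (dpp). A male embryonic stem cell line (ESC, strain OG2, Oct4-GFP on both alleles) was the comparison outside the germline. No strain, reporter or number of animals per sample is given for the germ cells in the sources used here. Each of the 23 groups had 2 arrays, except the ESC and the 14 dpp group with 1 each. The replicates are called biological in the series' list and biological or technical in its protocol, so p-values measure the spread between these samples only.

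Levels below are log2 values of normalized intensity from 1 probe, and a level of one gene cannot be set against that of another. An array detected a probe when the scanner software's detection p was under 0.01. The fetal arrays were dim, with a median intensity of 75.89 to 98.17 and 24.9% to 49.3% of probes detected, against 121.9 to 205.7 and 42.1% to 46.1% after birth and 146.4 and 38.4% in the ESC. Brightness and the step from fetal to other cells cannot be told apart. The germ cell markers Dazl, Dppa3 and Dnd1 were detected on all 44 arrays, the ESC included. Ddx4 was not detected in the ESC, and was detected on 28 of 30 fetal arrays (the exceptions were the E16.5 female pair) and on 13 of 13 postnatal arrays. The summed level of 6 Sertoli cell markers was 149.7 to 195.8 in E16.5 to E18.5 females and 587.3 to 1847 in males of those days. In bulk samples, fewer cells of a type and less RNA per cell cannot be told apart.

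Tdrd1 had 3 probes and Stk31 had 2, and within each gene the probes disagreed. The Tdrd1 probe ILMN_3132549 was detected on 33 of 44 arrays, while ILMN_2718442 and ILMN_2763563 were detected on 0 of 44, with highest intensities of 174.1 and 162.8 and lowest detection p of 0.04386 and 0.131579. The Stk31 probe ILMN_1250210 was detected on 43 arrays, and ILMN_2599231 on 0, with a highest intensity of 149.9 and a lowest detection p of 0.190476. Values of Tdrd1 and Stk31 therefore rest on a single probe each, as do those of Tdrd6 (ILMN_2733717, detected on 18 arrays), Tdrd7 (ILMN_2818678, 44 arrays) and Tdrkh (ILMN_2734624, 44 arrays). Tested on their own, none of the 3 dark probes was called in any of the 17 comparisons by the limma fit.

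**Figure D1:**
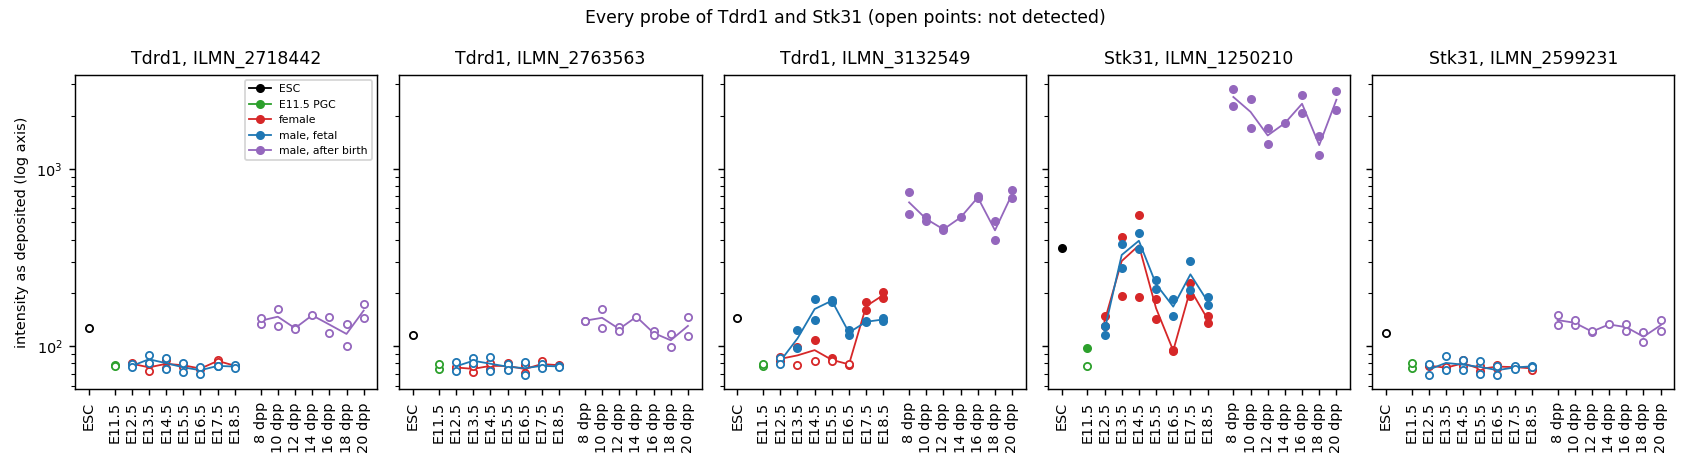
Intensity as deposited, on a log axis, of each probe of Tdrd1 (3 probes) and Stk31 (2 probes) on the 44 arrays, in order of stage; lines join group means and open points mark arrays without detection. ILMN_3132549 and ILMN_1250210 rise above the floor, and the other 3 probes were detected on no array.

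The 5 genes lie on 5 chromosomes of GRCm38.p6: Tdrkh at chr3:94413243-94434854, Tdrd7 at chr4:45965027-46034766, Stk31 at chr6:49395506-49469506, Tdrd6 at chr17:43615334-43631846 and Tdrd1 at chr19:56826171-56870012. RefSeq promoters were matched by symbol for Tdrd1, Tdrd7, Tdrkh and Stk31, in 9 entries. The 250 bases before each start were searched on both strands for CACGTG, the palindromic E-box bound by MAX partners, and for GGCGGGA, an element bound by E2F proteins. Both motifs are shown because a complex with MAX and E2F6 is known to hold germline genes silent in embryonic stem cells. CACGTG was found 11 bases before the first Tdrd1 start and 55 bases before the first Stk31 start, and in the overlapping second entry of each gene, whereas 6.02% of 32851 promoters hold it. It was not found in the 3 windows of Tdrd7 or the window of Tdrkh, and GGCGGGA, which 9.75% of promoters hold, was in none of the 9. Against a median of 6 over all promoters, the dinucleotide CG occurred 11, 22 and 3 times in the 3 windows of Tdrd1, 3, 28 and 29 times in those of Tdrd7, 19 times in that of Tdrkh and 21 and 26 times in those of Stk31. The windows of the first Tdrd7 entry and the third Tdrd1 entry were thus below the median; the second Tdrd7 entry is shown as one of the pair rich in CG, a choice made with these counts known. The stretches end at the first annotated base of the gene, or for Tdrd7 at its second start, all on the plus strand and with CACGTG in capitals; for Tdrd1 that motif lies past the first annotated base, so 30 bases around it are given for Tdrd1 and Stk31.
Tdrd1, chr19:56825959-56826170: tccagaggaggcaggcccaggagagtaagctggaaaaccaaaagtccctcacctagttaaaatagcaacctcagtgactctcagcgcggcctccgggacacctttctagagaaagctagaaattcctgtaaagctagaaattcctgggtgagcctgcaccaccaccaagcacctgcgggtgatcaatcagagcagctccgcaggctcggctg
Tdrd1, chr19:56826186-56826215: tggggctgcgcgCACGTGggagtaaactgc
Stk31, chr6:49395472-49395501: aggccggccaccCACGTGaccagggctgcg
Stk31, chr6:49395289-49395505: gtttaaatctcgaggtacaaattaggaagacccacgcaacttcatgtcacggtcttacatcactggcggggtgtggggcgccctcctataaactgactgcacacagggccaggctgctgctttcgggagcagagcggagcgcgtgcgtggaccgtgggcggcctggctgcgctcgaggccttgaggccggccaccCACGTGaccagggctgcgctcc
Tdrkh, chr3:94412994-94413242: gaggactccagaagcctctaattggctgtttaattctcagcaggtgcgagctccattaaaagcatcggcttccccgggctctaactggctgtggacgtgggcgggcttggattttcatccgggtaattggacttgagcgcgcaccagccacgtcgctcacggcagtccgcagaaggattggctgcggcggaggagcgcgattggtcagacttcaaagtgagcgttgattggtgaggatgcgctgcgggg
Tdrd7, chr4:45972047-45972296: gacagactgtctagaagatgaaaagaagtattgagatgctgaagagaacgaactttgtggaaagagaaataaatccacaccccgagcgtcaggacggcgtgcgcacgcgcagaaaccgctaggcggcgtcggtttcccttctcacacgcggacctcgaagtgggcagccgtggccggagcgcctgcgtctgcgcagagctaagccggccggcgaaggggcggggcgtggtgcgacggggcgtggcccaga

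The 5 genes came up at different times. Tdrd7 and Tdrkh were detected in every group and were higher in E11.5 germ cells than in the ESC. Stk31 rose between E11.5 and E12.5, and Tdrd1 rose in males by E14.5 and in females after E16.5. Tdrd6 rose in males from E16.5 and was not detected at 8 to 12 dpp. It was detected again on the single 14 dpp array and was higher from 16 dpp on. A difference was called at an adjusted p under 0.05 (limma, Benjamini-Hochberg over all 10935 genes) and at least 2-fold. Between the ESC and E11.5, 2 of the 5 genes were called higher and 1 lower, where 28.2% of all genes were called (13.8% higher and 14.4% lower). From E11.5 to E12.5, both sexes together, 2 of 5 rose and none fell, where 3.33% of all genes were called higher and 2.56% lower. Between E12.5 to E13.5 and E14.5 to E15.5, 4 of 5 rose in males, where 12% of all genes were called higher, and 1 of 5 rose in females, where 7.43% were. The median difference of the 5 genes over that step was 1.27 in males and 0.76 in females, beside a median of all genes of 0.00458 and 0.00143.

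**Figure D2:**
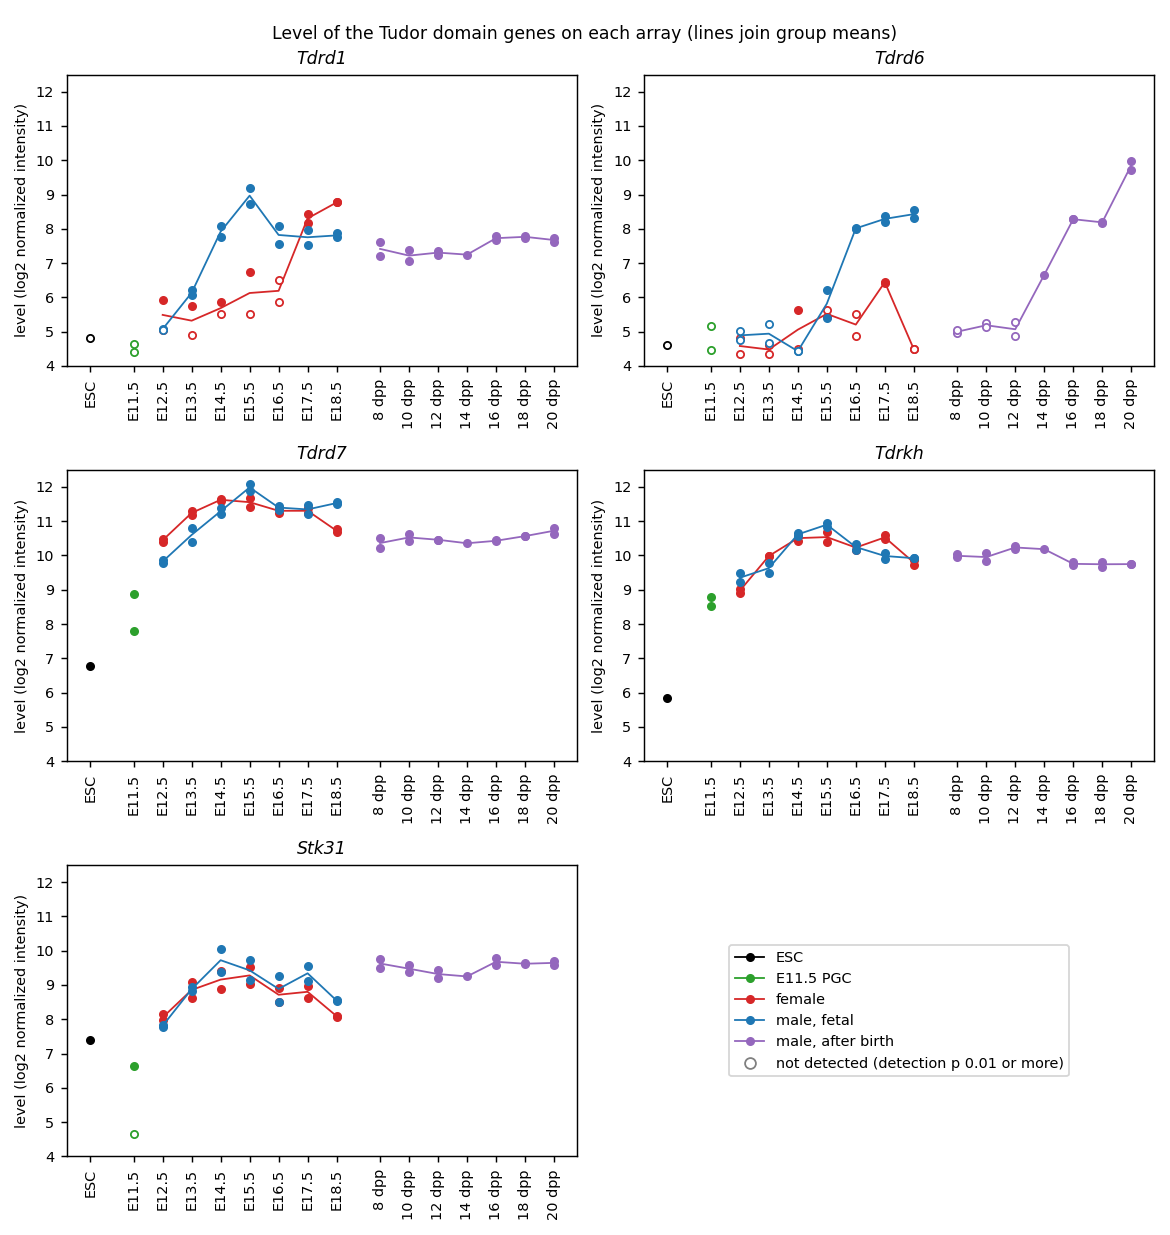
Level (log2 normalized intensity) of the 5 genes on each of the 44 arrays by stage, with 1 panel per gene; points are arrays, lines join group means, and open points mark arrays that did not detect the probe. Tdrd1 climbs in males by E14.5 and in females at E17.5, and Tdrd6 is low and not detected at 8 to 12 dpp, below its late fetal male and its 16 to 20 dpp levels.

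From E14.5 to E15.5 to E17.5 to E18.5, 1 of 5 rose in each sex (Tdrd1 in females, Tdrd6 in males), where 8.32% of all genes in females and 11.5% in males were called higher. From E17.5 to E18.5 males to 8 to 10 dpp, 1 of 5 fell, against 18.6% of all genes called lower. Within the postnatal series few genes were called, which does not show that the others kept their level. Between 8 to 10 and 12 to 14 dpp, 0 of 5 and 0.0274% of all genes were called. Between 12 to 14 and 16 to 18 dpp, 1 of 5 rose where 0.476% of all genes did, and between 16 to 18 and 20 dpp, 1 of 5 rose where 1.03% did. That gene was Tdrd6 both times.

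**Figure D3:**
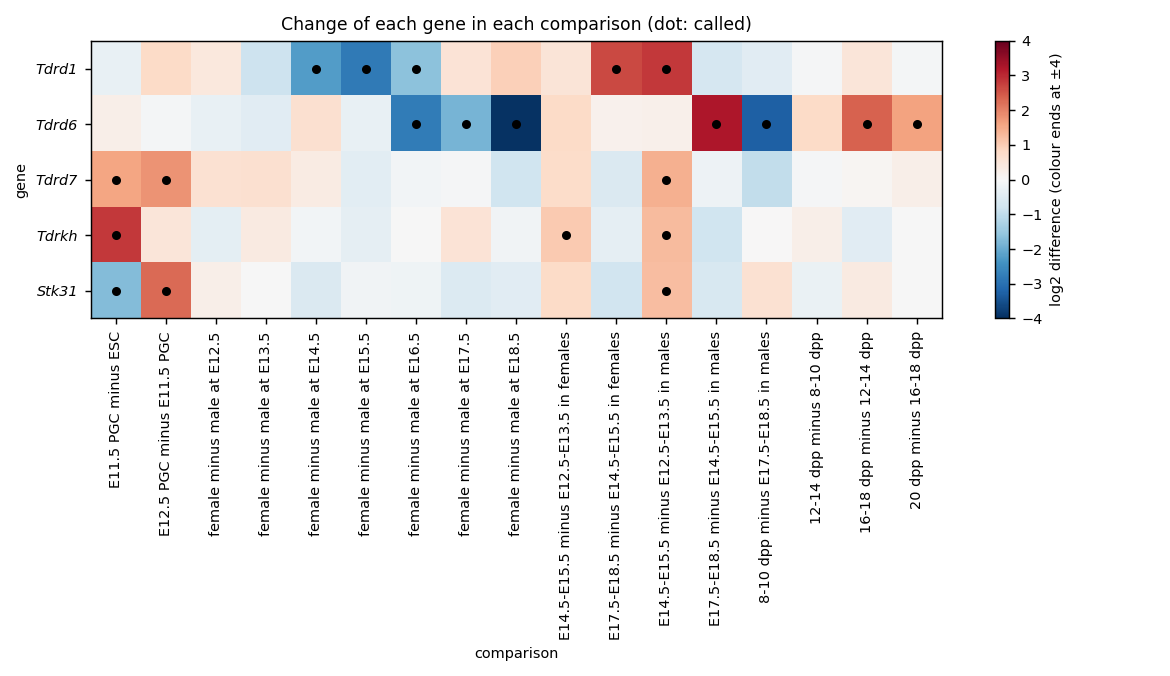
Log2 difference of each of the 5 genes in each of the 17 comparisons between groups, as colour, with a dot where the difference was called; where a side was detected on no array the colour is the fitted value and no measured size. Tdrd6 has the only dots after birth, and the step to E14.5 to E15.5 in males has dots for 4 genes.

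Tdrd1, which binds the PIWI protein MILI, was not detected in the ESC (level 4.83) or on either E11.5 array (4.64 and 4.40). In males it was not detected at E12.5 (5.09 and 5.06), was 6.21 and 6.06 at E13.5, 7.75 and 8.09 at E14.5 and 8.73 and 9.20 at E15.5. Male levels then were 7.56 and 8.09 at E16.5, 7.97 and 7.53 at E17.5 and 7.87 and 7.75 at E18.5. Every male array from E13.5 on detected Tdrd1, and the E15.5 pair had the highest mean of the 23 groups, 0.20 above E18.5 females, which is less than the residual SD of 0.34; its replicate 1 (8.73) lay below both E18.5 female arrays. In females the levels were 5.93 and 5.05 at E12.5, 4.90 and 5.75 at E13.5, 5.50 and 5.87 at E14.5 and 6.74 and 5.52 at E15.5, with detection on 1 array of each pair. The E16.5 female arrays, at 6.51 and 5.88, did not detect it. Levels of 8.18 and 8.43 at E17.5 and 8.77 and 8.77 at E18.5 followed, above every earlier female array.

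The male level of Tdrd1 rose by 2.84 ± 0.23 (SE; adjusted p = 1.54e-10 by limma, 4 arrays against 4) from E12.5 to E13.5 to E14.5 to E15.5. The female level rose by 2.63 ± 0.23 (adjusted p = 8.22e-10) from E14.5 to E15.5 to E17.5 to E18.5, with no overlap of the arrays. Females stood below males at E14.5, by a log2 difference of -2.23 ± 0.33 (adjusted p = 2.91e-06). The gap was wider on the next day, at -2.84 ± 0.33 (adjusted p = 4.53e-08). That value was -2.23 without the female array of replicate 2. Without replicate 1 the remaining female array did not detect Tdrd1, and females were at least 7.02-fold lower. The germ cell markers (5 measured of 6) summed to 4413 to 7913 in females and 15590 to 26640 in males over E14.5 to E15.5, and the red cell markers to 8148 and 8209 in E15.5 females and 2393 and 2669 in E15.5 males; their part in the difference was not tested. At E16.5, where the female pair was the dimmest of the series, Tdrd1 was at least 1.6-fold lower in females (means 6.19 and 7.82, adjusted p = 1.17e-04), a bound because no female array detected it. The female mean was the higher at E17.5, by 0.55 ± 0.33 (adjusted p = 0.153), and at E18.5, by 0.96 ± 0.33 (adjusted p = 0.0137), under 2-fold; without the male array of replicate 1 the E18.5 value was 1.02 and was called. At E13.5 the difference was -0.81 ± 0.33 (adjusted p = 0.0579), and it was called, at least 1.47-fold lower, without the female array of replicate 2, which left a female array without detection.

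After birth Tdrd1 was detected on 13 of 13 arrays, at 7.06 to 7.79 with a median of 7.61, and no comparison between postnatal ages was called. The pairs were 7.20 and 7.63 at 8 dpp, 7.38 and 7.06 at 10 dpp, 7.37 and 7.25 at 12 dpp, 7.78 and 7.67 at 16 dpp, 7.79 and 7.74 at 18 dpp and 7.74 and 7.61 at 20 dpp, and the 14 dpp array was at 7.25. The step from late fetal males to 8 to 10 dpp was -0.46 ± 0.23 (adjusted p = 0.0801), and it was 1.32 (adjusted p = 7.18e-09) with arrays scaled by their median, a scaling that moved the median of all genes by 1.10 in this comparison. In the order of its 23 group means, 4 of 22 gaps between neighbours exceeded the residual SD of 0.34, among them the gap of 0.46 below E18.5 females and that of 0.39 below E17.5 females.

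Tdrd6, a component of the chromatoid body, was not detected in the ESC (4.60), at E11.5 (5.18 and 4.47) or at E12.5 and E13.5 in either sex (4.36 to 4.81 in females and 4.66 to 5.23 in males). In males it was 4.44 and 4.42 without detection at E14.5, 5.41 and 6.23 with detection at E15.5, 8.00 and 8.03 at E16.5, 8.39 and 8.20 at E17.5 and 8.55 and 8.31 at E18.5. Each male array from E16.5 on lay above every other fetal array. In females it was detected on 1 of 2 arrays at E14.5 (5.63 and 4.49), on none at E15.5 (5.62 and 5.42) or E16.5 (5.53 and 4.89), on both at E17.5 (6.43 and 6.46) and on none at E18.5 (4.49 and 4.49). The E17.5 pair was thus the highest of the female arrays, and the E18.5 pair was back among the undetected ones; the step between those days was not tested.

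The male rise of Tdrd6 from E14.5 to E15.5 to E17.5 to E18.5 was 3.23 ± 0.21 (adjusted p = 7.64e-12, 4 arrays against 4), and the same step in females was 0.18 ± 0.21 (adjusted p = 0.551). Females were lower than males by at least 1.82-fold at E16.5 (means 5.21 and 8.01, adjusted p = 9.13e-09), by a log2 difference of -1.85 ± 0.30 at E17.5 (adjusted p = 6.97e-06) and by at least 5.85-fold at E18.5 (means 4.49 and 8.43, adjusted p = 2.47e-11). Over E16.5 to E18.5, 6 of the 6 Sertoli markers were detected on some male array and 1 of 6 on some female array; Sox9 and Amh were detected on no female array. The part of those cells in the sex difference of Tdrd6 was not tested. At E14.5, where no male array detected Tdrd6, no difference was called (adjusted p = 0.0881) and no fold can be given. Without the female array of replicate 2 females were called higher, by at least 1.13-fold.

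After birth Tdrd6 was not detected on any of 6 arrays at 8 to 12 dpp (4.95 and 5.05, 5.24 and 5.13, 5.27 and 4.87), with detection p between 0.011278 and 0.056391. It was 6.66 on the single 14 dpp array, 8.29 and 8.27 at 16 dpp, 8.17 and 8.21 at 18 dpp and 9.72 and 9.98 at 20 dpp. The 20 dpp pair was the highest of all groups, with intensities of 2327.91 and 3273.24 as deposited, against 162.758 to 214.988 at 8 to 12 dpp. Tdrd6 fell from late fetal males to 8 to 10 dpp by at least 8.6-fold (means 8.36 and 5.09, adjusted p = 7.76e-13). That bound holds for normalized levels only. Intensities as deposited were 157.9 to 172.968 in late fetal males and 192.567 to 214.988 at 8 to 10 dpp, on arrays of unlike brightness. The fall was still called with arrays scaled by their median, which moved the median of all genes by 1.10 there. It rose by 2.37 ± 0.23 from 12 to 14 to 16 to 18 dpp (adjusted p = 3.69e-07; at least 7.7-fold without the 14 dpp array, as neither 12 dpp array detected it) and by 1.62 ± 0.26 from there to 20 dpp (adjusted p = 3.16e-04). The last step was 1.77 with adjusted p = 0.0814, and not called, in the authors' deposited log2 values. Sertoli markers summed to 964 to 5270 at 8 to 12 dpp and to 993.8 to 2080 at 16 to 20 dpp. Among the 23 group means 4 of 22 gaps between neighbours exceeded the residual SD of 0.30, and the gap of 1.42 below 20 dpp was the widest.

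Tdrd7, a nuage protein that is also needed in the lens, was detected on all 44 arrays. Its level was 6.76 in the ESC, 7.80 and 8.86 at E11.5, 10.40 and 10.49 in females and 9.85 and 9.79 in males at E12.5. The groups did not overlap at either step. E11.5 germ cells were above the ESC by 1.57 ± 0.26 (adjusted p = 3.13e-05, 2 arrays against 1), by 1.03 without the E11.5 array of replicate 2 and by 2.10 without that of replicate 1. With arrays scaled by their median, which moved the median of all genes by -0.99 there, the value was -0.32. The rise from E11.5 to E12.5 was 1.80 ± 0.18 (adjusted p = 5.17e-07), between 1.27 and 2.33 when either E11.5 array was left out. Red cell markers summed to 66880 on E11.5 replicate 1 and to 2891 on replicate 2. Their part in the E11.5 values of Tdrd7 and Tdrkh was not tested.

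Female levels of Tdrd7 were 11.29 and 11.19 at E13.5, 11.59 and 11.66 at E14.5, 11.68 and 11.43 at E15.5, 11.38 and 11.23 at E16.5, 11.38 and 11.23 at E17.5 and 10.67 and 10.77 at E18.5. Male levels were 10.80 and 10.40, 11.20 and 11.38, 12.08 and 11.88, 11.46 and 11.34, 11.22 and 11.47, and 11.55 and 11.50 on the same days. The E15.5 male pair was the highest group, 0.36 above the next against a residual SD of 0.21. The male rise to E14.5 to E15.5 was 1.43 ± 0.15 (adjusted p = 1.28e-08), and the female difference over that step was 0.75 ± 0.15 (adjusted p = 2.09e-04), under 2-fold. Female minus male was 0.64 ± 0.21 at E13.5 (adjusted p = 0.0207) and -0.81 ± 0.21 at E18.5 (adjusted p = 1.89e-03), with no overlap of arrays on either day and both under 2-fold. From late fetal males to 8 to 10 dpp the difference was -0.99 ± 0.15 (adjusted p = 2.31e-06), just under 2-fold, and it was called, at up to -1.07, when any 1 of 4 arrays was left out (replicate 1 of E17.5, 8 dpp or 10 dpp, or replicate 2 of E18.5). Postnatal levels ranged from 10.21 to 10.80, and no postnatal comparison was called.

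Tdrkh was also detected on all 44 arrays, at 5.83 in the ESC and at 8.54 and 8.80 at E11.5. E11.5 germ cells were higher by 2.84 ± 0.17 (adjusted p = 5.36e-12), and by 0.91 (adjusted p = 0.0876), not called, with arrays scaled by their median. In females the levels were 8.92 and 9.03 at E12.5, 9.99 and 9.98 at E13.5, 10.43 and 10.58 at E14.5, 10.67 and 10.40 at E15.5, 10.29 and 10.17 at E16.5, 10.59 and 10.47 at E17.5 and 9.86 and 9.73 at E18.5. In males they were 9.49 and 9.22, 9.77 and 9.49, 10.65 and 10.58, 10.95 and 10.84, 10.32 and 10.17, 10.06 and 9.91, and 9.93 and 9.91. The E15.5 male pair was the highest group, and the female means at E14.5, E15.5 and E17.5 lay within the residual SD of each other. The rise to E14.5 to E15.5 was 1.27 ± 0.10 in males (adjusted p = 8.63e-11) and 1.04 ± 0.10 in females (adjusted p = 4.72e-09). The female value was not called without the E15.5 array of replicate 1 (0.97) or with arrays scaled by their median (0.71, adjusted p = 0.0506).

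No day showed a called sex difference of Tdrkh. The widest was 0.54 ± 0.14 higher in females at E17.5 (adjusted p = 1.77e-03), with no overlap of arrays, and the male level at E17.5 to E18.5 stood at -0.80 ± 0.10 relative to E14.5 to E15.5 (adjusted p = 3.51e-07), under 2-fold. After birth Tdrkh ranged from 9.67 to 10.27, with the 3 arrays of 12 and 14 dpp at 10.18 to 10.27 and the 4 arrays of 16 and 18 dpp at 9.67 to 9.82. That difference was -0.46 ± 0.11 (adjusted p = 0.0312), under 2-fold, with no overlap. The step from late fetal males to 8 to 10 dpp was 0.02 ± 0.10 (adjusted p = 0.879 by limma). With arrays scaled by their median, which moved the median of all genes by 1.10 there, it was 2.16 and called. The residual SD of Tdrkh was 0.11, and 8 of 22 neighbouring group means were farther apart than that.

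Stk31 was detected in the ESC at 7.38. Of the 2 E11.5 arrays, replicate 1 did not detect it (4.66) and replicate 2 did (6.64). At E12.5 it was 7.97 and 8.14 in females and 7.84 and 7.78 in males, above both E11.5 arrays and the ESC. E11.5 cells were called lower than the ESC by -1.73 ± 0.47 (adjusted p = 4.70e-03), but without replicate 1 the value was -0.74 and not called. The rise to E12.5 was 2.28 ± 0.33 (adjusted p = 5.03e-05), and it was 1.29 without replicate 1 and at least 2.54-fold without replicate 2, the array that detected Stk31. The 5 red cell markers with a probe summed to 66880 on E11.5 replicate 1 and 2891 on replicate 2; their part in the Stk31 values was not tested.

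From E13.5 on Stk31 lay between 8.07 and 10.06 in both sexes, with the E14.5 male pair (9.38 and 10.06) the highest group and the E18.5 pairs (8.07 and 8.10 in females, 8.54 and 8.55 in males) the lowest by their means. Males rose by 1.23 ± 0.27 to E14.5 to E15.5 (adjusted p = 4.50e-04), a value of 0.90 and not called with arrays scaled by their median. The female difference over that step was 0.76 ± 0.27 (adjusted p = 0.0254), under 2-fold. No sex difference of Stk31 was called on any day, and the values ran from -0.57 ± 0.38 at E14.5 to 0.24 ± 0.38 at E12.5. After birth the 13 arrays ranged from 9.19 to 9.78 with a median of 9.58, and no postnatal comparison was called. The step of Stk31 from late fetal males to 8 to 10 dpp was 0.61 ± 0.27 (adjusted p = 0.0520 by limma). With arrays scaled by their median, which moved the median of all genes by 1.10 there, it was 2.67 and called. Only 3 of the 22 gaps between neighbouring group means of Stk31 exceeded its residual SD of 0.40.

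Whether the sex difference itself changed over the 7 fetal days was tested with a moderated F-test over 6 contrasts against E12.5. It did for Tdrd6 (F = 30.2, adjusted p = 3.41e-09), Tdrd1 (F = 20.8, adjusted p = 9.17e-08), Tdrd7 (F = 6.52, adjusted p = 6.47e-04) and Tdrkh (F = 6.05, adjusted p = 1.03e-03), and Stk31 missed the threshold (F = 0.609, adjusted p = 0.737). Of all genes, 75.4% passed the same test, so 4 of 5 is near the background. Day by day, 0 of 5 genes were called between the sexes at E12.5 (8.83% of all genes) and at E13.5 (20%). Then 1 of 5 was called lower in females at E14.5 (16.3% of all genes lower), at E15.5 (21%), at E17.5 (23.1%) and at E18.5 (22.9%), and 2 of 5 at E16.5 (24.5%). At E16.5 those were Tdrd1 and Tdrd6, which no female array detected on that day. Their bounds were at least 1.6-fold and 1.82-fold, so only the fitted values reached 2-fold. None of the 5 genes was called higher in females on any day, E18.5 included, where 20.4% of all genes were. With arrays scaled by their median all 5 were called lower in E16.5 females, with the median of all genes moved by -0.40 on that day. That scaling called 3424 of all 10935 genes there, in either direction. Tdrd7 was called lower in E15.5 females as well, at -1.10, where 2787 of all genes were called in either direction.

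**Figure D4:**
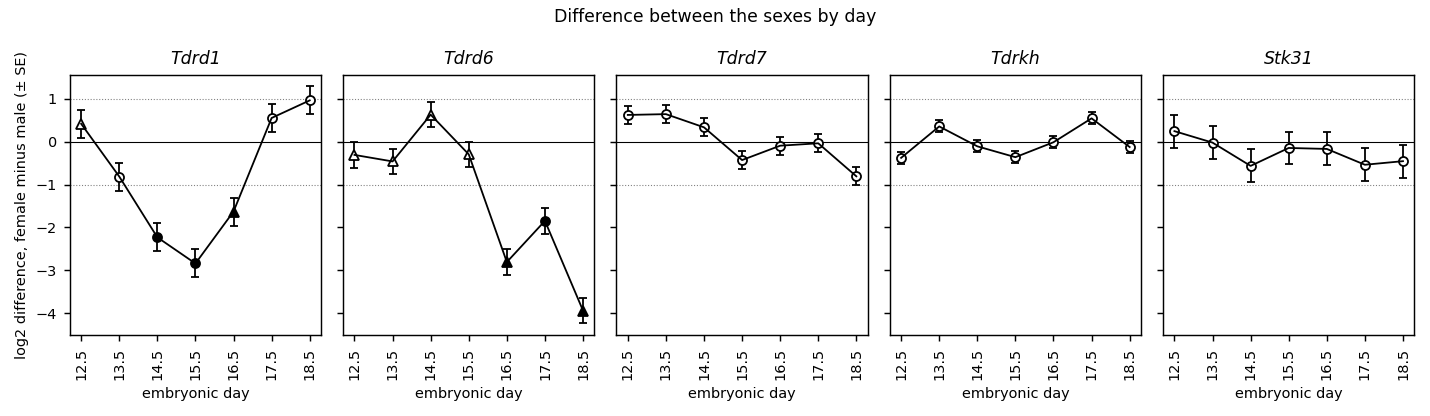
Log2 difference of female minus male (± SE) by embryonic day for each of the 5 genes, 2 arrays against 2 per day; filled points were called, triangles mark days on which no array of at least 1 sex detected the gene, so that the fitted value there is no measured size, and dotted lines mark 2-fold. Tdrd1 dips to -2.84 at E15.5 and returns above 0 at E17.5, Tdrd6 lies below 0 with calls from E16.5 to E18.5 (at least 5.85-fold lower at E18.5), and Tdrd7, Tdrkh and Stk31 stay within 2-fold.

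Among the 5 genes, the profiles over the 23 group means were most alike for Tdrd7 and Tdrkh (Pearson r = 0.918, rank correlation 0.703). They were least alike for Tdrd6 and Tdrkh (r = 0.183, rank correlation 0.165). Within the 15 fetal germ cell groups, Tdrd7 and Stk31 had r = 0.923 and Tdrd7 and Tdrkh 0.878. These are descriptions over means that share arrays and their brightness. Of all genes tested, those with the profile nearest to Tdrd1 were Chrna5 (r = 0.906), Sohlh1 (0.904) and Mllt3 (0.887). Nearest to Tdrd6 were Adam32 (0.962), Pebp4 (0.959) and Dkkl1 (0.940). Ccdc92 (0.929), Ift81 (0.928) and Ppp1r13b (0.920) were nearest to Tdrd7. For Tdrkh the list was led by Tdrd7 itself, followed by Mov10l1 (0.916), an RNA helicase of the piRNA pathway, and Ep400 (0.907), and for Stk31 by Fyco1 (0.887), Zmym3 (0.882) and Usp3 (0.863).

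The other genes of the pathway were taken from lists chosen with earlier results known. Of 17 genes for PIWI proteins and their piRNA partners, 9 were measured. In E11.5 germ cells 5 of the 9 were called higher than in the ESC and 0 lower, with 13.8% of all genes higher and 14.4% lower. The Ddx4 helicase was at least 5.65-fold higher and Mov10l1 at least 8.38-fold. From E12.5 to E13.5 to E14.5 to E15.5, 7 of 9 rose in males, where 12% of all genes did, and 1 of 9 (Mov10l1, 1.16 ± 0.10) in females, where 7.43% did. Male increases included 4.37 ± 0.30 for Piwil4, the PIWI protein of fetal male germ cells, 2.92 ± 0.24 for Henmt1, which methylates piRNA ends, and 2.42 ± 0.20 for Piwil1. The median of the 9 was 1.69 in males and 0.09 in females over this step.

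Females were called lower than males for 7 of the 9 at E14.5 and 7 at E15.5, where 16.3% and 21% of all genes were. On the later days 4, 3 and 2 of the 9 were called lower at E16.5, E17.5 and E18.5, where 24.5%, 23.1% and 22.9% of all genes were. On those days 2, 1 and 0 of the 9 were called higher, where 20.2%, 20.9% and 20.4% of all genes were. At E14.5 the Piwil4 difference was -5.49 ± 0.42 (adjusted p = 6.64e-11) and at E15.5 Piwil4 was at least 49.2-fold lower in females. Piwil2, which encodes the TDRD1 partner MILI, was lower by -1.46 ± 0.14 at E14.5 and -2.44 ± 0.14 at E15.5 (adjusted p = 4.44e-09 and 3.31e-13). In females Piwil2 rose by 1.83 ± 0.10 from E14.5 to E15.5 to E17.5 to E18.5, the step over which Tdrd1 rose, with 4 of the 9 genes called higher where 8.32% of all genes were. From late fetal males to 8 to 10 dpp 4 of 9 fell, where 18.6% of all genes did, and 0 rose, where 18.4% did. The 4 included Piwil4 (-2.84 ± 0.30) and Ddx4 (-2.48 ± 0.29). None of the 9 was called in the 3 postnatal steps that followed, where 0.0274%, 0.549% and 1.03% of all genes were.

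Of 5 further germline Tudor genes, Tdrd12 and Rnf17 were measured. Tdrd12 was lower in females by -1.41 at E13.5, -1.16 at E14.5, -1.49 at E15.5 and -1.45 at E18.5 (SE 0.16 each, adjusted p of 1.81e-06 or less). Rnf17, the gene of TDRD4, was at least 1.27-fold lower at E11.5 than in the ESC and at least 1.41-fold higher in females at E12.5, and was called in no other comparison.

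**Figure D5:**
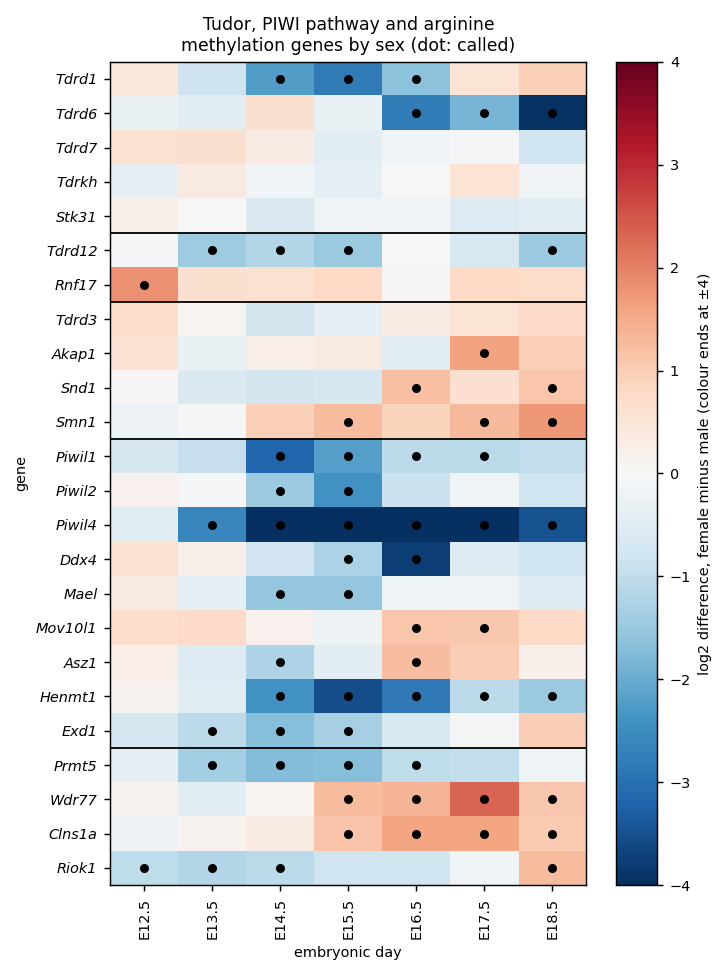
Log2 difference of female minus male by embryonic day for the 5 genes (top block), other germline Tudor genes, Tudor genes of many tissues, PIWI pathway genes and arginine methylation genes, 2 arrays against 2 per day; a dot marks a called difference. Piwil4, Henmt1 and Piwil1 share the blue E14.5 to E16.5 columns with Tdrd1, and Tdrd6 turns blue at E16.5 to E18.5.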

How the data were processed

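The table of the series holds an intensity and a detection p-value per probe and array, not normalized, as the authors deposited them; per the submitters' processing notes BeadStudio 3.2, lumi and RMA were used, with no role given. A second table holds log2 values deposited by the authors: on each array they rank as the intensities do (rank correlation 1), and all columns have the same distribution (median 3.204, so no centring on 0); the formula is not given in the sources used here. Symbols came from the platform annotation, updated through Entrez IDs (8 symbols changed); 23978 probes had 1 symbol and 1719 none.

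Intensities were background-corrected with the detection p-values, quantile-normalized and put on the log2 scale with an offset of 16 (neqc, limma 3.58.1, R 4.3.3). Probes with detection p under 0.01 on 2 arrays or more were kept (16086), and a gene took its brightest kept probe. A single limma fit with 23 group means covered all 44 arrays (21 residual degrees of freedom), two-sided, with Benjamini-Hochberg adjustment over 10935 genes. An "at least" fold sets the brighter mean against the lowest detected signal where 1 side was detected on no array. Array number limits the precision. The most alike genes were the 3 with the highest Pearson r over group means. Lists were other germline Tudor genes, Tudor genes of many tissues, PIWI pathway and arginine methylation. Members and lists were chosen with earlier results of these data known. The fit was tested on simulated data. Other offsets, scalings, filters, probes, weights, blocks and left-out arrays were tried.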

Additional observations from a re-analysis of the deposited data

Results flagged for a closer look

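The sex difference of 4 genes changed with the embryonic day, by the F-test of that change in the limma fit. For Tdrd6 (adjusted p = 3.41e-09) the female mean was the higher on 1 of 7 days, E14.5. For Tdrd1 (adjusted p = 9.17e-08) it was the higher on 3 of 7 days, E12.5, E17.5 and E18.5. For Tdrd7 (adjusted p = 6.47e-04) it was the higher at E12.5 to E14.5, by 0.62, 0.64 and 0.33, and the lower at E15.5 to E18.5. For Tdrkh (adjusted p = 1.03e-03) it was the higher at E13.5 and E17.5, by 0.35 and 0.54. Every single-day difference of Tdrd7 and Tdrkh was under 2-fold, and 75.4% of all genes passed the same test. Without the E16.5 arrays 4 of the 5 genes still passed.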

How the results depend on the processing

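Counts of the 5 genes called held within 1.5 times in all 18 tests with an offset of 50, without the detection filter, with each probe tested alone, with array weights and with the replicate block (1 called at E14.5 and 4 of 5 for the change of the sex difference, as without it). Replicate numbers did not pair the samples: over 210 pairs of groups the deviations correlated at -0.124 to 0.335, and 21 pairs passed 0.1; with the numbers crossed, chosen after seeing the data, 0 and 1 genes were called at E13.5 and E14.5. With arrays scaled by their median, 1 gene was called between E11.5 and the ESC (3 otherwise), where 5514 of all 10935 genes were called in either direction. Between the sexes 2 were called at E15.5 (2787 of all genes) and 5 at E16.5 (3424). The first female step had 0 (1283 of all genes) and the late male step 2 (1051). Between 8 to 10 dpp and late fetal males 4 were called, where 6591 of all genes were. Tdrd7 turned to -0.32 against the ESC and Tdrd1 to 1.32 after birth. In the authors' values 2 were called at E18.5 (5356 of all genes) and 2 over the first female step (2624). After birth 2 were called (5323 of all genes), and 0 from 16 to 18 to 20 dpp (76). Leaving out 1 array changed the call of Stk31 at E11.5 against the ESC, Tdrd1 at E13.5 and E18.5, and Tdrd6 at E14.5. It also did so for Tdrd6 and Tdrkh over the first female step and Tdrd7 after birth, and for no other value. Such fits mostly leave 1 array in a group, so counts of calls are not given for them. Tdrd1 at E18.5 ran from 0.90 to 1.02, Tdrkh over the first female step from 0.97 to 1.11 and Tdrd7 after birth from -1.07 to -0.92. Of the 1265 single-gene values under all alternatives, 1238 kept their call status (39 of them uncalled values of the other sign). With the sign unchanged, 19 gained and 6 lost a call. A further 2 changed both sign and call status, with arrays scaled by their median: Tdrd7 against the ESC lost its call and Tdrd1 after birth gained one. The causes were not tested. Signal over background limits Tdrd1 in 4 groups and Tdrd6 in 13, where no array detected them.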

Other observations

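Of 5 Tudor genes used in many tissues, 4 were measured, and their calls between the sexes were all in the female direction, unlike those of Tdrd1 and Tdrd6. Smn1, needed for the assembly of splicing particles, was higher in females by 1.26 ± 0.17 at E15.5, 1.30 at E17.5 and 1.72 at E18.5. Akap1, an anchor protein of mitochondria, was higher by 1.60 ± 0.24 at E17.5, and Snd1 by 1.19 ± 0.24 at E16.5 and 1.12 at E18.5. By day, 1 of the 4 was called higher at E15.5 and at E16.5, where 19.2% and 20.2% of all genes were, near the background. At E17.5 and at E18.5, 2 of the 4 were called higher, where 20.9% and 20.4% of all genes were. None of the 4 was called at E12.5, E13.5 or E14.5, where 8.83%, 20% and 32.2% of all genes were called in either direction.

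The 4 genes for symmetric arginine methylation, the mark that Tudor domains bind, went different ways. Prmt5, the methyltransferase, was lower in females by -1.35 at E13.5, -1.73 at E14.5, -1.71 at E15.5 and -1.01 at E16.5 (SE 0.16 each). Its partners Wdr77 and Clns1a were higher in females from E15.5 to E18.5, by 1.08 to 2.32 and by 1.06 to 1.59. Riok1, an adaptor of Prmt5, was lower in females at E12.5 to E14.5 (-1.01 to -1.16 ± 0.25) and higher by 1.27 at E18.5. In males Wdr77 fell by 1.67 ± 0.22 from E12.5 to E13.5 to E14.5 to E15.5, the step over which Tdrd1, Tdrd7, Tdrkh and Stk31 rose.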
